A study of Mus musculus with 30 samples.

Results

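The unfolded protein response and the integrated stress response were followed through 35 member genes in mouse fibroblasts given extra copies of 1 of 5 transcription factors. The members were named by symbol, 18 as targets of the transcription factor ATF4 (called the ATF4 arm here, with Atf4 itself) and 17 as chaperones, disulfide isomerases and quality control genes of the endoplasmic reticulum (ER; called the ER arm). They are 35 of the 35967 genes that the deposited transcript tables cover, and all 35 passed the filter on low counts in every fit. The cells were NIH3T3-CG, a form of the mouse embryonic fibroblast line NIH3T3 whose suffix the labels do not explain. Bulk RNA was sequenced from 30 libraries in 10 groups of 3. The groups were cells transduced with Prrx1 and given doxycycline, set against the same transduced cells without doxycycline; cells transfected with Prrx1 or with Snai1, set against 1 shared group that received a control plasmid; cells transfected with Egr1 or with Jun, set against another shared control plasmid group; and cells transfected with Srebf2, set against control plasmid cells of their own. Both doxycycline groups carry the Prrx1 construct, and every transfection control received a plasmid. The labels state neither the promoter of the constructs nor the time of collection, and they do not say whether replicates were separate cultures, so each p-value speaks for the variation among libraries alone, part of which may be technical. Values of 3 libraries are listed in the order of replicates 1 to 3.

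Both responses are circuits that match protein production to folding capacity. Kinases that sense unfolded protein in the ER, missing amino acids, haem or double-stranded RNA phosphorylate the initiation factor eIF2; general translation then drops while translation of ATF4 rises, and ATF4 switches on genes of amino acid uptake and synthesis, tRNA charging and, with CHOP (the product of Ddit3), of growth arrest. The ER sensors IRE1 and ATF6 act through the spliced form of XBP1 and through cleaved ATF6 on chaperones such as BiP (Hspa5) and on the machinery that removes misfolded proteins. GADD34, the product of Ppp1r15a, returns the phosphatase to eIF2 and so ends the block on translation.

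Some of the members' promoters carry the letters by which these factors are known to bind. RefSeq entries of 300 bases, 250 before and 50 after the start of transcription (GRCm38.p6), were at hand for 32 of the 35 members, 17 of the ATF4 arm and 15 of the ER arm. The ER stress element, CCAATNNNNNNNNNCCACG, where 9 bases of any kind part the ends, was searched on both strands. It was present in 7 of 15 ER arm members (Calr, Canx, Creld2, Dnajc3, Hsp90b1, Hspa5 and Pdia6, 46.7%) and in 0 of 17 ATF4 arm members. Of all 32851 promoters, 39 held it (0.119%). Its relative ATTGGNCCACG was found in Herpud1 alone among the members (0.0365% of all promoters). The core of the C/EBP-ATF response element that ATF4 binds, TGATGNAA, was present in 8 of 17 ATF4 arm members and in Herpud1, against 3.97% of all promoters. The 8 were Aars, Asns, Chac1, Gars, Nupr1, Slc7a11, Trib3 and Vldlr (47.1%). Psat1 and Vldlr have more than 1 promoter entry, and Vldlr has an entry without the core. A member was counted once if any entry matched, while the shares of all promoters count every entry. The XBP1 core TGACGTG was found in Hspa5 (2.01% of all promoters), and the cyclic AMP response element TGACGTCA in Ppp1r15a alone among the members (1.79%). No matches overlapped. A match describes letters and not binding, and a window without one says nothing of the factor.
Shown first is the member that passed the test most often, Ppp1r15a, at chr7:45526219-45526518 (minus strand), with its cyclic AMP response element in capitals, 12 bases before the start.
Ppp1r15a: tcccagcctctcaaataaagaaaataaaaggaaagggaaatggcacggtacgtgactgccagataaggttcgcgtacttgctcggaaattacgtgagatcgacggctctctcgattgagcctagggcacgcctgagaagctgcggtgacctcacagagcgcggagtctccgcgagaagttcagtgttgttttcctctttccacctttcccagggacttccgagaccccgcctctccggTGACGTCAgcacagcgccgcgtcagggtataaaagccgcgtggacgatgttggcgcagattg
Next are 2 ATF4 arm members that passed once each, Chac1 at chr2:119350992-119351291 (plus strand) and Gars at chr6:55037751-55038050 (plus strand), with the ATF4 element in capitals (read on the other strand in both).
Chac1: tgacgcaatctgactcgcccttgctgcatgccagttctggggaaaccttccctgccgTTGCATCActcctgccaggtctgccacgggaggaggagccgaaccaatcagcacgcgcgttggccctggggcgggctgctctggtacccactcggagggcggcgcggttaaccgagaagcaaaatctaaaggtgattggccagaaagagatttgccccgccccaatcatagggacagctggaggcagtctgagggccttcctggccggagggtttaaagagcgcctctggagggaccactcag
Gars: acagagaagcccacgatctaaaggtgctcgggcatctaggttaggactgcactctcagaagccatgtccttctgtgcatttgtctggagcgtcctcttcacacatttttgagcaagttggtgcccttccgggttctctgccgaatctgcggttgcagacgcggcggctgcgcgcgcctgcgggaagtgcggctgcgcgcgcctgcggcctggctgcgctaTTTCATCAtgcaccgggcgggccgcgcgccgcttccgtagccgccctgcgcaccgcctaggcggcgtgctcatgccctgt
Last are 3 ER arm members whose promoters share the ER stress element, in capitals, and whose changes are set side by side further on. Hspa5 lies at chr2:34771840-34772139 (plus strand) and also holds the XBP1 core, Hsp90b1 lies at chr10:86705395-86705694 (minus strand) and holds the element in both orientations, and Creld2 lies at chr15:88819396-88819695 (plus strand) with the element on the other strand.
Hspa5: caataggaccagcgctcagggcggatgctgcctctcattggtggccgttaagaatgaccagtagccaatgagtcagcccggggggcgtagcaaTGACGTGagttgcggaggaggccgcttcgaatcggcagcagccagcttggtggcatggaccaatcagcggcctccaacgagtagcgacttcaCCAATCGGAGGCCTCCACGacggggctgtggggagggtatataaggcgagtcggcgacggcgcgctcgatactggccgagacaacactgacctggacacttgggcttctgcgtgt
Hsp90b1: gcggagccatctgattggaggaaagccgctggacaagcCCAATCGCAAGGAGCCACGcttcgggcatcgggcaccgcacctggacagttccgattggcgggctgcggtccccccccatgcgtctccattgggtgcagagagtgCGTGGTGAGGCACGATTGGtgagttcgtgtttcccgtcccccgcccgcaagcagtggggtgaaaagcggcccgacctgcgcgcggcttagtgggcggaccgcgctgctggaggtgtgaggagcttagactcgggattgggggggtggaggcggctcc
Creld2: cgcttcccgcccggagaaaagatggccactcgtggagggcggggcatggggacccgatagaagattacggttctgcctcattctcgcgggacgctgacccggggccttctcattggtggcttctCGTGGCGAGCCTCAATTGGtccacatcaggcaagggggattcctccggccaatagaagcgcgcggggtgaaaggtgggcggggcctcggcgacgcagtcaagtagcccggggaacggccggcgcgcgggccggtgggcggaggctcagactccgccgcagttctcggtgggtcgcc

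Depth was 7996355 to 17129632 estimated counts in the 6 transduced libraries and 18020141 to 37068611 in the 24 transfected ones. All 8 fibroblast markers were detected in every library and summed to 15000 to 25900 CPM (counts scaled to a common library size); Fn1, Col1a2 and Vim had the highest medians, while Lum ran from 0.0904 to 72.2 CPM. Summed over their lists, 5 epithelial markers had 0 to 158 CPM, 4 neural ones 2.50 to 79.9 CPM, 4 immune ones 5.4 to 30.4 CPM and 3 endothelial ones 15.1 to 23.0 CPM in the transduced libraries and 2.36 to 5.21 CPM in the transfected ones. Epcam (epithelial) was at 0 in 16 libraries, Rbfox3 (neural) in 18 and Cd3e (immune) in 14, but Krt8 (epithelial) was at 0 in 2 and Tubb3 (neural) was detected in all, at 2.25 to 22.2 CPM. The third Egr1 library stood apart with 158 CPM over 5 epithelial markers (2.46 to 14.6 CPM in the other Egr1, Jun and control libraries of that experiment), and the second control library of that experiment with 79.9 CPM over 4 neural markers. Each delivered factor was higher than in its control, Prrx1 by 3.85-fold with doxycycline and 27.5-fold after transfection, Snai1 by 123-fold, Egr1 by 9.53-fold, Jun by 22.1-fold and Srebf2 by 4.2-fold. A red fluorescent protein sequence, mScarlet, which the authors added to the index, took 0.194 to 0.332% of counts after Egr1 or Jun against 3.08 to 3.91% in their controls, and 0.0503 to 0.0589% after Srebf2 against 0.855 to 0.995%. It took 0.945 to 1.61% after Prrx1 or Snai1 against 0.915 to 1.30% in their controls, and 0 in the transduced cells.

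No called member reached a log2 fold change of 1 in either direction. Over 6 comparisons of a treated group with its own control, 19 calls were made, 8 higher and 11 lower, where a call is a Benjamini-Hochberg adjusted p under 0.05 over all tested genes in edgeR's quasi-likelihood test. They fell on 13 members, 5 of the ATF4 arm and 8 of the ER arm, and 22 members were called in none. The share of all tested genes called ran from 0.324% after Egr1 to 17.3% after Srebf2, and 10 of the 19 calls were made after Srebf2. Ppp1r15a was called in 4 comparisons, lower each time; Sdf2l1, an ER cochaperone, was called in 3, higher in 2 and lower in 1; Pdia4, a disulfide isomerase, was called in 2, once in each direction. The largest change among the calls was that of Ppp1r15a after Jun, 1.81-fold lower. Fold changes below are log2 values of treated over control, given with their standard error (SE) and n = 3 per group, and bulk RNA cannot tell fewer cells that express a gene from less RNA per cell.

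**Figure D1:**
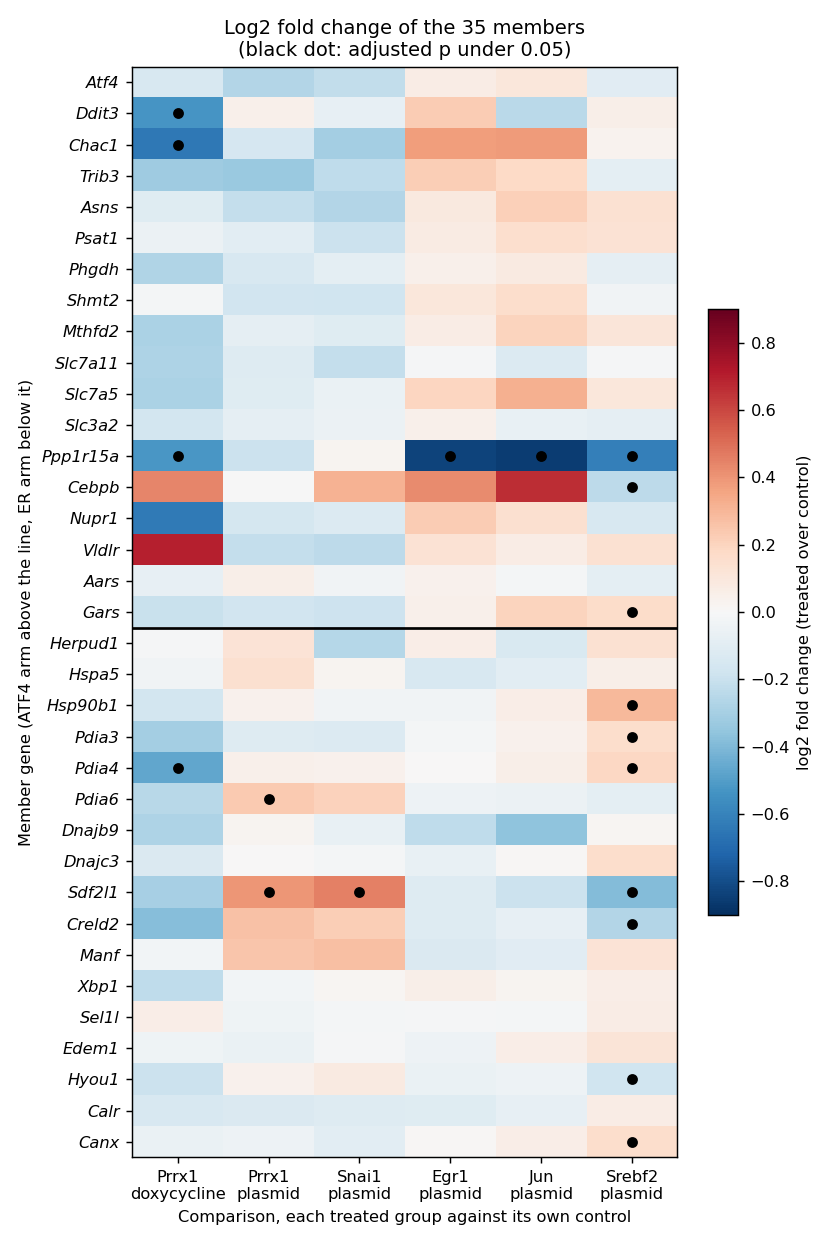
Colour gives the log2 fold change of each of the 35 members (rows, ATF4 arm above the line and ER arm below it) in 6 comparisons of a treated group with its control (columns), and black dots mark an adjusted p under 0.05. Ppp1r15a is marked lower in 4 columns, and the Srebf2 column holds 10 of the 19 marks.

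With doxycycline 4 members fell in the Prrx1-transduced cells, the ATF4 arm genes Chac1, Ddit3 and Ppp1r15a and the ER isomerase Pdia4. Cells given doxycycline without the Prrx1 construct were not analysed here, so the drug and the factor cannot be told apart. Of all 13617 genes tested, 2.74% were called lower and 3.46% higher. No member was called higher by the edgeR fit reported here (1 at an unadjusted p below 0.05, as were 9.33% of all tested genes), DESeq2 or limma. At an unadjusted p under 0.05, 14 members were lower, against 9.19% of all tested genes, and 32 of 35 fold changes were below 0, against 51.2%. The members' median was −0.19 (ATF4 arm −0.24, ER arm −0.16), against −0.01 over all tested genes. The count of 4 is thin: it was 0 without the first or the second doxycycline library, and 1 without the third doxycycline library or the third one without doxycycline. Without the second library without doxycycline it was 6, and limma on log2(TPM + 1) called 0. With no filter on low counts, edgeR called 1 member higher and 8 lower. The first library without doxycycline stood apart from the other two of its group, with 3.32% of counts from mitochondrial transcripts against 1.19 and 1.90%, and with a chi-square per gene of 38.8 and 22.7 towards them, where they had 15.8 between them. Without it Chac1, Ppp1r15a and Pdia4 were called lower, Ddit3 lost its call (adjusted p = 0.119) and Cebpb was called higher (log2 0.67, adjusted p = 0.0029).

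After Prrx1 transfection 2 members rose, both of the ER arm, Pdia6 and Sdf2l1, and after Snai1 transfection 1 rose, Sdf2l1. For Prrx1, 1.94% of 13099 tested genes were called higher and 1.06% lower, and for Snai1 1.14% and 0.481%. In the edgeR fit reported here, with all libraries kept, no member was called lower in either comparison. At an unadjusted p below 0.05 there were 6 lower after Prrx1 and 9 after Snai1. At that p 7.7% and 7% of all tested genes were lower and 9.54% and 9.28% higher. DESeq2 called 3 and 5 lower, and limma 1 and 2. Without a filter on low counts, edgeR called 1 higher and 2 lower after Prrx1, and 3 higher and 2 lower after Snai1. With DESeq2 size factors edgeR called 3 higher and 1 lower after Prrx1, and with all 30 libraries in 1 fit 0 and 1. With transcripts annotated as retained introns left out, it called 2 higher and 1 lower after Prrx1. The ATF4 arm had a median of −0.15 in each comparison and the ER arm 0.04 after Prrx1 and −0.01 after Snai1, against 0.00 over all genes in both. These comparisons share their controls. Control library 1 stood apart from the others of its group, with a chi-square per gene of 31.1 and 25.3 towards them, where they had 4.16 between them. Without the first control library the counts became 9 members after Prrx1 (5 higher, 4 lower) and 13 after Snai1 (5 higher, 8 lower), and all genes called became 2637 and 3061 in place of 393 and 212. The Prrx1 count was 0 without any 1 of the Prrx1 libraries or the second control and 1 without the third control, and the Snai1 count was 0 without the first or the third Snai1 library or the second or the third control. Mitochondrial transcripts took 1.07 to 1.47% of counts after Prrx1 and 1.05 to 1.34% after Snai1, against 2.02 to 2.43% in the controls, and their part in these counts was not tested.

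After Egr1 and after Jun, Ppp1r15a alone of the 35 members was called, lower in both. The tested genes called higher and lower were 0.207% and 0.117% of 14527 for Egr1 and 0.454% and 0.503% for Jun. The edgeR fit reported here called no member higher, with 1 at an unadjusted p below 0.05 after Egr1 and 7 after Jun. At that p 5.61% and 7.67% of all tested genes were higher and 4.64% and 7.61% lower. That 1 and those 7 were all among the 18 ATF4 arm genes, with 0 of 17 in the ER arm. At the same p 4 members were lower after Egr1 (1 ATF4 arm, 3 ER arm) and 2 after Jun (1 in each arm). DESeq2 called 0 and 3 higher. After Jun, edgeR on only the groups compared called 4 members higher and 3 lower, and with all 30 libraries in 1 fit 1 higher and 1 lower. Limma on log2(TPM + 1) called 5 and 14 higher, on a scale on which the median of all genes was itself shifted to 0.15 and 0.14. The ATF4 arm median was 0.08 after Egr1 and 0.15 after Jun, the ER arm median −0.05 in each, and all genes had −0.0029 and −0.0061; the controls are shared. Without the third Egr1 library, the one with epithelial markers, 4 members were called after Egr1 (3 higher, 1 lower). Without it and the control library with neural markers, an alternative chosen after seeing the data, there were 8 after Egr1 and 4 after Jun. Mitochondrial transcripts took 1.61 to 1.73% of counts after Egr1 and 1.39 to 1.79% after Jun, against 1.31 to 1.41% in the controls, so that Egr1 libraries lay above them and Jun libraries overlapped them; their part in these counts was not tested.

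After Srebf2 transfection 10 members changed, 5 in each direction. Hsp90b1, Pdia4, Gars, Canx and Pdia3 rose, and Ppp1r15a, Sdf2l1, Creld2, Cebpb and Hyou1 fell. Here 8.62% of 12717 tested genes were called higher and 8.67% lower, beside 5 of the 35 members in each direction. The median was 0.06 for all members, −0.02 for the ATF4 arm and 0.07 for the ER arm, against 0.01 over all genes. The count was 5 without the first or the second control library or the second Srebf2 library, and 4 without the third Srebf2 library. With the transcripts annotated as retained introns left out, an alternative chosen after seeing the data, Pdia3 and Canx no longer passed (adjusted p = 0.0566 and 0.063). Mitochondrial transcripts took 3.63 to 3.93% of counts after Srebf2, against 2.90 to 3.20% in the controls, without overlap, and their part in these counts was not tested.

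**Figure D2:**
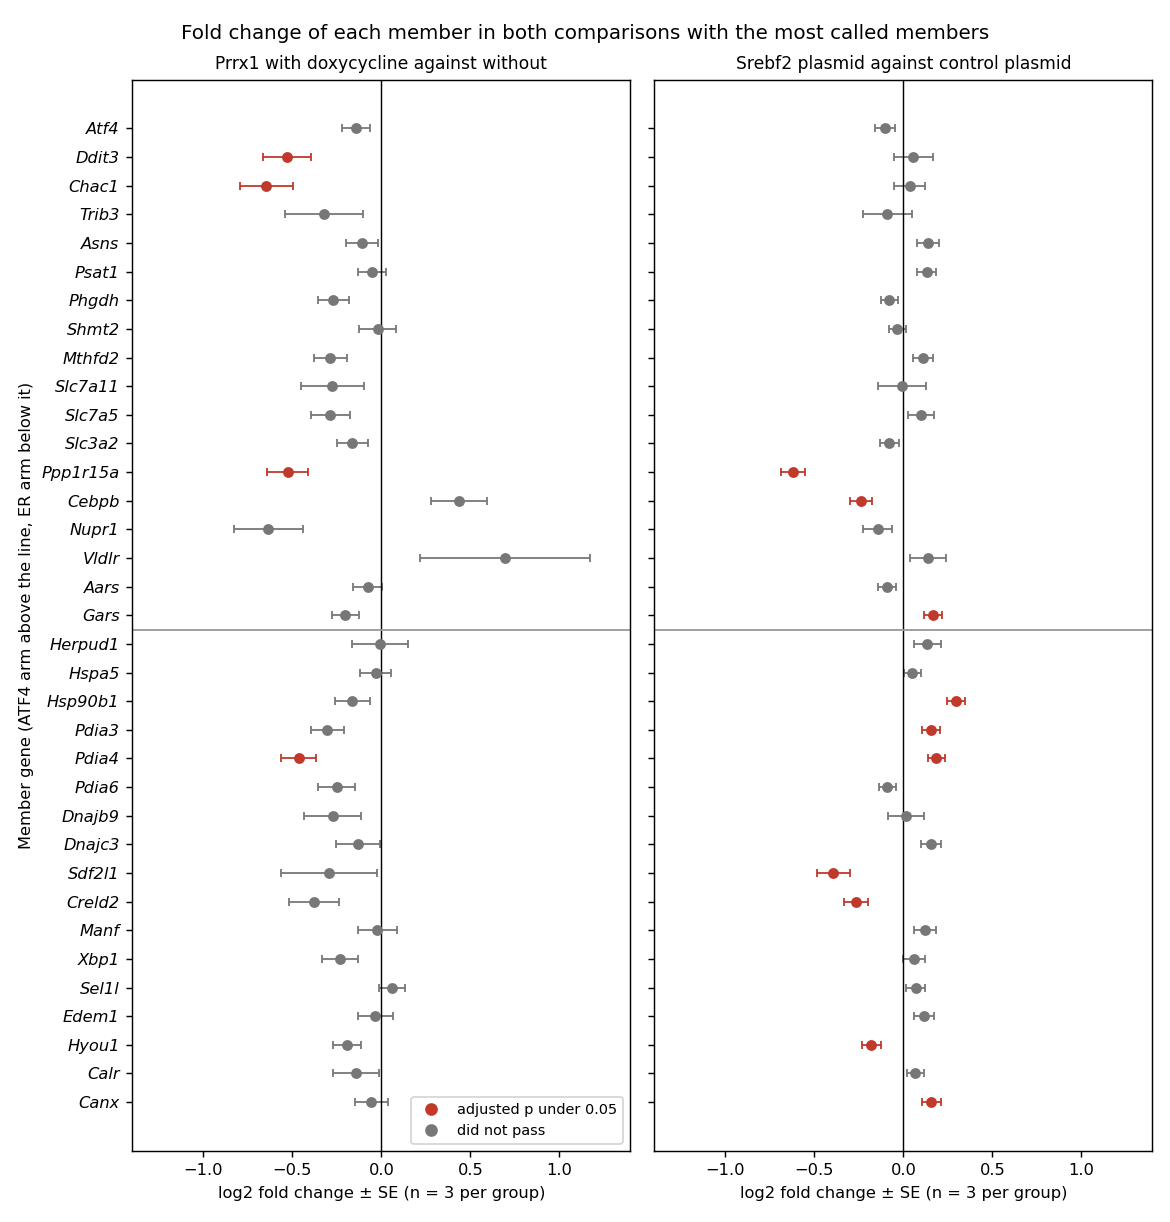
Points show the log2 fold change of each member with its SE, at the left for Prrx1 cells with doxycycline against those without and at the right for Srebf2 plasmid against control plasmid, with red for an adjusted p under 0.05. At the left 32 of 35 points lie below 0 and 4 are red, while at the right 5 red points lie on each side of 0.

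Atf4, the hub of the integrated stress response, was among the 4 members with the highest levels per transcript length, at a median of 479 TPM (transcript abundance scaled for length and depth) over 30 libraries, and passed in no comparison. With doxycycline it stood at 365, 374 and 422 CPM, against 422, 438 and 422 CPM without, and the groups overlapped (log2 −0.14 ± 0.0799, adjusted p = 0.379). Prrx1 libraries held 534, 549 and 571 CPM and Snai1 libraries 581, 554 and 564 CPM, against 720.1, 658 and 605 CPM in their shared controls. All 6 factor libraries were below all 3 controls, and neither difference passed (log2 −0.26 ± 0.0664, adjusted p = 0.0524 for Prrx1; log2 −0.22 ± 0.0664, adjusted p = 0.114 for Snai1). Egr1 libraries had 505, 511 and 453 CPM and Jun libraries 486, 521 and 497 CPM, against 489, 436 and 477 CPM in controls. Srebf2 libraries had 508, 509 and 451 CPM, against 496, 539.8 and 542 CPM in controls. In these last 3 comparisons treated and control libraries overlapped, with fold changes of 0.07, 0.10 and −0.10. ATF4 is set largely by translation, which RNA counts do not measure.

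Ddit3, which encodes the stress factor CHOP (chr10:127290774-127296288, plus strand), fell with doxycycline. It counted 26.2, 19.7 and 22.2 CPM with doxycycline, against 35.7, 31.01 and 31.4 CPM without, and every doxycycline library lay below every library without (log2 −0.53 ± 0.136, adjusted p = 0.042). Of its transcripts, the protein-coding Ddit3-201 had 14.5, 12.6 and 11.2 CPM with doxycycline, against 22.8, 23.1 and 19.6 CPM without. Ddit3-202, annotated as a retained intron, had 11.98, 6.81 and 10.6 CPM with doxycycline, against 9.09, 8.09 and 10.8 CPM without. The coding transcript was lower in each doxycycline library and the other one overlapped, and with retained-intron transcripts left out the fold change of the gene was −0.85 (adjusted p = 0.0114). The call was lost without any 1 of 5 of the 6 libraries, the exception being the second one without doxycycline (highest adjusted p 0.221, without the second doxycycline library). Prrx1 libraries held 34.7, 47.3 and 38.3 CPM and Snai1 libraries 37.8, 39.5 and 33.6 CPM, against 39.6, 40.4 and 36.5 CPM in controls, and both overlapped them. Egr1 libraries had 64.9, 55.5 and 43.5 CPM and Jun libraries 38.5, 39.02 and 40.9 CPM, against 45.8, 49.3 and 44.9 CPM in controls. All 3 Jun libraries were below the controls and the Egr1 libraries straddled them, with neither passing (−0.24 and 0.23, adjusted p = 0.396 and 0.559). Srebf2 libraries had 48.2, 43.8 and 44.03 CPM, against 35.02, 48.4 and 47.3 CPM, and overlapped their controls.

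Chac1, a glutathione-degrading enzyme switched on by ATF4, had the largest fall with doxycycline among the called members. It was at 13.98, 15.5 and 15.4 CPM with doxycycline, against 20.8, 26.9 and 22.7 CPM without, with no overlap (log2 −0.65 ± 0.148, adjusted p = 0.0245). This call was lost without any 1 of the doxycycline libraries or the third one without it (adjusted p 0.0717 to 0.115). Prrx1 libraries held 36.6, 41.2 and 48.3 CPM and Snai1 libraries 40.1, 35.3 and 38.1 CPM, against 53.4, 48.00 and 38.8 CPM in controls, with overlap in both. Egr1 libraries had 45.8, 46.9 and 27.5 CPM and Jun libraries 39.4, 43.6 and 38.4 CPM, against 31.8, 31.3 and 30.1 CPM in controls. The Jun libraries and the first 2 Egr1 libraries were above the controls and the third Egr1 library below them, and neither comparison passed (0.38 and 0.37, adjusted p = 0.391 and 0.554). Srebf2 libraries, at 29.1, 27.6 and 26.7 CPM against 23.4, 28.4 and 29.4 CPM, overlapped their controls.

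Ppp1r15a, the GADD34 gene (chr7:45522916-45526268, minus strand), was the member that moved most often. Egr1 libraries held 84.9, 73.7 and 68.5 CPM and Jun libraries 71.9, 75.8 and 77.04 CPM, against 128, 147 and 130.3 CPM in the controls they share. Every factor library lay below every control, and the gene was 1.78-fold lower after Egr1 (log2 −0.84 ± 0.0763, adjusted p = 0.000895) and 1.81-fold lower after Jun (log2 −0.85 ± 0.0768, adjusted p = 0.000649). Srebf2 libraries held 49.1, 41.6 and 50.1 CPM, against 69.8, 73.6 and 72.5 CPM in controls, again with no overlap and 1.53-fold lower (log2 −0.62 ± 0.0672, adjusted p = 3.37e-05). Doxycycline libraries held 48.99, 54.4 and 58.9 CPM, against 80.2, 86.7 and 67.5 CPM without, and were also all lower (log2 −0.53 ± 0.115, adjusted p = 0.0198). Prrx1 transfection libraries held 73.3, 88.8 and 78.6 CPM and Snai1 libraries 93.8, 92.1 and 93.4 CPM, against 105, 81.6 and 88.5 CPM in controls. Those last comparisons overlapped and did not pass (−0.19 and 0.02, adjusted p = 0.319 and 0.937). The calls after Egr1, Jun and Srebf2 held under every alternative run, and the doxycycline call was lost without the first or second doxycycline library (adjusted p = 0.102 and 0.0959) and with limma on TPM (0.398). Leaving out both libraries with other cell type markers gave −0.71 for Egr1 and −0.79 for Jun. Nearly all counts fell on the coding transcript Ppp1r15a-201, which is 2333 bases long and took 85.4 to 95.85% of the gene's counts in the 10 groups. In the 3 transfection comparisons in which Ppp1r15a fell, mScarlet was lower as well (log2 −3.89 after Egr1, −3.49 after Jun and −4.10 after Srebf2). In both in which it did not pass, mScarlet did not pass either (0.32 and −0.10, adjusted p = 0.304 and 0.802). With doxycycline Ppp1r15a fell while mScarlet was at 0 counts in both groups. The part of the control plasmid in these values was not tested.

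**Figure D3:**
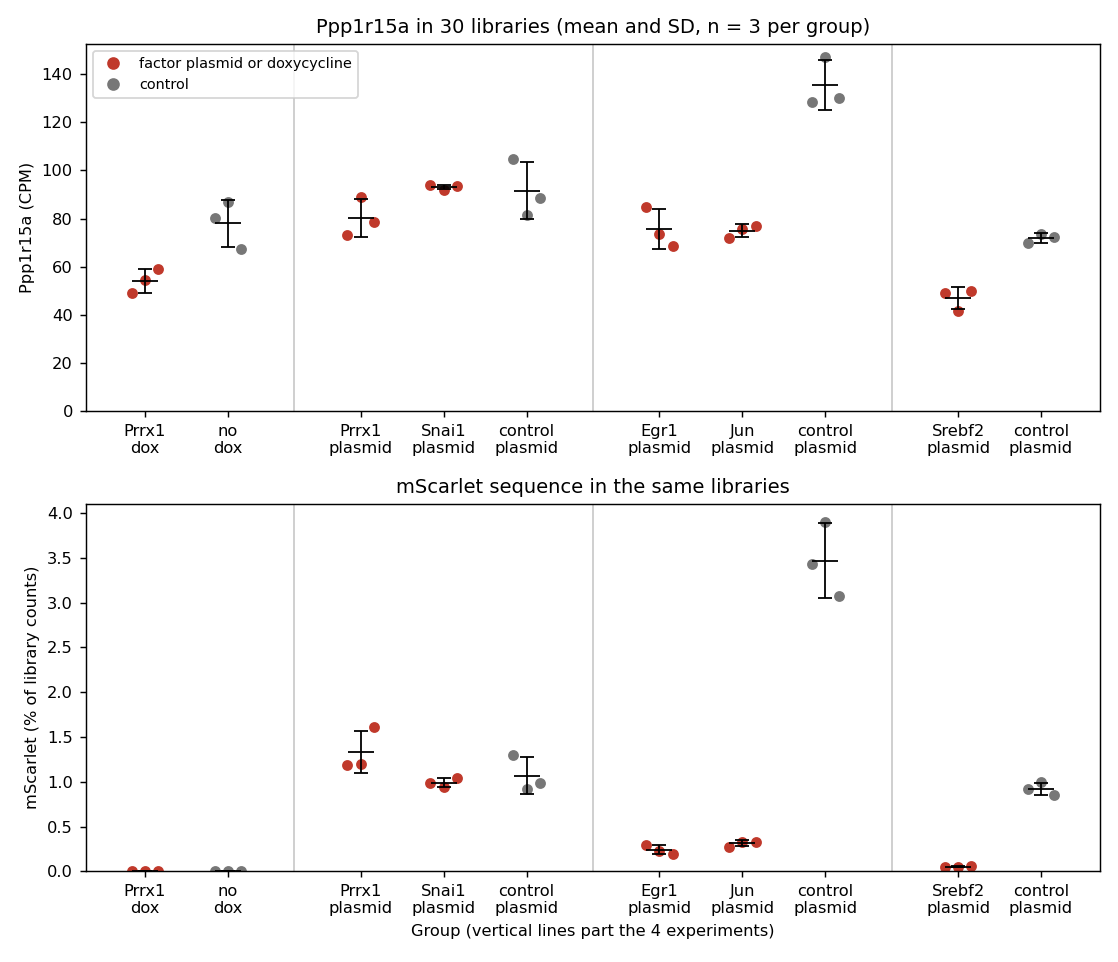
Upper panel, Ppp1r15a in CPM in each of 30 libraries (points) with the group mean and SD (n = 3); lower panel, the percent of library counts on mScarlet in the same libraries, with vertical lines between the 4 experiments. The Egr1 and Jun libraries lie between 68.5 and 84.9 CPM, below their controls at 128 to 147 CPM, and mScarlet was lower in the same libraries.

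Cebpb is a leucine zipper partner of ATF4 and CHOP whose transcripts are 80.4% unique in 31-base words, so that its values are uncertain. It fell after Srebf2 and, in the fits reported here with all libraries kept, was called in no other comparison with controls. Srebf2 libraries held 135, 134 and 117 CPM, against 159, 144 and 152 CPM in controls, without overlap (log2 −0.24 ± 0.0602, adjusted p = 0.0126). That call was lost without the third Srebf2 library (adjusted p = 0.0562). Egr1 libraries held 106, 119.6 and 109 CPM and Jun libraries 147, 106 and 141 CPM, against 64.97, 81.9 and 103 CPM in controls. All 6 factor libraries exceeded the controls, and neither passed (log2 0.42 ± 0.191, adjusted p = 0.517 for Egr1; log2 0.66 ± 0.191, adjusted p = 0.182 for Jun). Prrx1 libraries had 122, 109.9 and 131 CPM and Snai1 libraries 159, 144 and 150.4 CPM, against 137, 119 and 109 CPM in controls. The Snai1 libraries exceeded the controls without passing (0.31, adjusted p = 0.0949). With doxycycline it was at 77.7, 79.4 and 72.4 CPM, against 72.4, 44.4 and 51.8 CPM without, the lowest doxycycline library lying only just above the highest one without (0.44, adjusted p = 0.165).

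Gars, which charges glycine to its tRNA, rose after Srebf2. Srebf2 libraries held 379.5, 411 and 405 CPM, against 338, 365 and 362 CPM in controls, without overlap (log2 0.17 ± 0.0509, adjusted p = 0.0318). The call was lost without any library but the first Srebf2 one (highest adjusted p 0.175). In Prrx1 libraries it had 429, 432 and 440.1 CPM and in Snai1 libraries 436, 433 and 422 CPM, against 507, 489.9 and 473 CPM in controls. These 6 factor libraries were below the controls and did not pass (−0.18 and −0.19, adjusted p = 0.102 and 0.0997). Egr1 libraries had 364, 369.5 and 331 CPM and Jun libraries 391, 405 and 386 CPM, against 369, 328 and 334 CPM in controls, the Jun libraries all above them (0.20, adjusted p = 0.105) and the Egr1 libraries among them. With doxycycline there were 457, 484 and 519.9 CPM, against 568, 570.4 and 543 CPM without, lower in each library (−0.20, adjusted p = 0.18).

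The other 12 ATF4 arm members were called in no comparison. For the serine and one-carbon enzymes the fold changes over the 6 comparisons ran as follows: Phgdh −0.27 to 0.08 (43.7% unique, uncertain), Psat1 −0.20 to 0.15, Shmt2 −0.18 to 0.16 and Mthfd2 −0.29 to 0.20. Asparagine synthetase, Asns, ran −0.27 to 0.22 and the alanyl-tRNA synthetase Aars −0.09 to 0.05 (85.6% unique, uncertain). Of the amino acid transporters, Slc7a5 ran −0.29 to 0.32, its partner Slc3a2 −0.16 to 0.05, and the cystine carrier Slc7a11 −0.28 to −0.01, below 0 in all 6. Trib3, a pseudokinase that restrains ATF4, ran −0.34 to 0.22. Nupr1, a small stress protein, reached −0.63 and the lipoprotein receptor gene Vldlr 0.70 with doxycycline, and neither passed (adjusted p = 0.0958 and 0.486). Vldlr was near the lower end of expression, at 1.86, 1.26 and 2.02 CPM with doxycycline against 1.11, 1.05 and 0.996 CPM without.

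In the ER arm, Xbp1, the target of IRE1 splicing, passed in no comparison. With doxycycline it had 48.1, 48.4 and 52.3 CPM, against 59.9, 61.9 and 53.1 CPM without, lower in each library (−0.23, adjusted p = 0.245). Prrx1 libraries had 91.2, 93.7 and 75.2 CPM and Snai1 libraries 83.2, 93.5 and 91.5 CPM, against 85.7, 86.3 and 93.1 CPM. Egr1 libraries had 61.6, 62.1 and 67.4 CPM and Jun libraries 61.1, 63.1 and 63.1 CPM, against 66.4, 59.5 and 57.9 CPM. After transfection of these 4 factors the libraries overlapped their controls, and so did the Srebf2 libraries, at 95.8, 104 and 112 CPM against 92.95, 102 and 105 CPM. IRE1 removes 26 bases from this RNA, but the shortest annotated intron of Xbp1 is 300 bases, so the spliced share could not be read from these transcript tables.

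Hspa5, the BiP chaperone that binds the ER sensors and is a common readout of ER stress, also passed in none. With doxycycline it stood at 1366, 1518 and 1596 CPM, against 1427, 1551 and 1605 CPM without. Prrx1 libraries held 999, 1071 and 921 CPM and Snai1 libraries 883, 954 and 919 CPM, against 818, 943 and 951 CPM in controls. Every one of these comparisons overlapped, with fold changes of −0.03, 0.14 and 0.02. Egr1 libraries had 676, 712 and 785 CPM and Jun libraries 738, 766 and 749 CPM, against 849, 759 and 792 CPM in controls, and Srebf2 libraries had 889, 933 and 965 CPM, against 883, 914 and 893 CPM. These overlapped too (−0.14, −0.09 and 0.05; lowest adjusted p over the 6 comparisons 0.365).

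Hsp90b1 (GRP94, the ER form of HSP90; 87.7% unique, uncertain) rose after Srebf2, the one member besides Ppp1r15a whose call held under every alternative run. Srebf2 libraries held 1165, 1255 and 1269 CPM, against 1018, 1001 and 988 CPM in controls, with no overlap (log2 0.29 ± 0.0511, adjusted p = 0.00114). In the doxycycline libraries it stood at 2328, 2321 and 2435 CPM, against 2940.2, 2271 and 2718 CPM without, and these overlapped. Prrx1 libraries held 1279.9, 1330.3 and 1249 CPM and Snai1 libraries 1209.8, 1264 and 1212 CPM, against 1099, 1319 and 1346 CPM in controls. Egr1 libraries held 943, 1054 and 1125 CPM and Jun libraries 1133, 1112 and 1069 CPM, against 1127, 979 and 1080.4 CPM. The first control of the Prrx1 and Snai1 experiment was the lowest of its 9 libraries, and all 4 of these transfection comparisons overlapped.

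Canx, the membrane-bound lectin chaperone calnexin, rose slightly after Srebf2, to 788, 846 and 883 CPM in Srebf2 libraries, against 736, 752 and 768 CPM in controls (log2 0.16 ± 0.0524, adjusted p = 0.0465). The groups did not overlap, but the call was lost without any library but the first Srebf2 one (adjusted p 0.0795 to 0.174). With doxycycline Canx had 1365, 1380.3 and 1489 CPM, against 1633, 1308 and 1464 CPM without. Prrx1 libraries had 819, 809 and 791 CPM and Snai1 libraries 789.9, 768 and 782 CPM, against 775, 855 and 863 CPM, and Egr1 libraries had 867, 892 and 900.3 CPM and Jun libraries 945, 932 and 878 CPM, against 914, 862 and 867 CPM. Those comparisons overlapped. Its soluble relative calreticulin, Calr, ran from −0.14 to 0.07 and was called in none.

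Hyou1, a large HSP70-like chaperone that exchanges nucleotide on BiP, fell after Srebf2. Srebf2 libraries held 126, 131 and 123 CPM, against 147, 150.0 and 134 CPM in controls, without overlap (log2 −0.18 ± 0.0538, adjusted p = 0.0281), and the call was lost without the first or second control or the second or the third Srebf2 library (adjusted p 0.0508 to 0.155). Prrx1 libraries held 167, 161 and 158 CPM and Snai1 libraries 171, 167 and 162 CPM, against 159, 154 and 159 CPM. The Snai1 libraries lay above the controls (0.08, adjusted p = 0.513). Egr1 libraries had 138, 136 and 144 CPM and Jun libraries 138, 143 and 142 CPM, against 147, 144 and 145 CPM. With doxycycline there were 120.0, 132 and 133 CPM, against 152, 147 and 141 CPM without, lower in each library without passing (−0.19, adjusted p = 0.205).

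Sdf2l1, a cochaperone of BiP (chr16:17130138-17132383, minus strand), was called in both directions. Prrx1 transfection libraries held 19.6, 18.4 and 17.6 CPM and Snai1 libraries 19.4, 17.6 and 20.8 CPM, against 14.3, 13.6 and 14.3 CPM in the controls they share. All 6 were above all controls (log2 0.40 ± 0.0927, adjusted p = 0.0373 for Prrx1; log2 0.46 ± 0.0925, adjusted p = 0.0277 for Snai1). Both calls were lost when only the groups compared were fitted (adjusted p = 0.0992 and 0.0882); the Prrx1 call was also lost without any library but the first control (0.0818 to 0.159), and the Snai1 call without the first or the third Snai1 library or the second or the third control (0.102 to 0.176). Srebf2 libraries held 12.1, 13.04 and 13.7 CPM, against 18.2, 16.99 and 15.8 CPM in controls, all lower (log2 −0.39 ± 0.0941, adjusted p = 0.00899), a call that no left-out library ended. Egr1 libraries held 12.4, 12.5 and 12.7 CPM and Jun libraries 10.7, 13.6 and 11.5 CPM, against 14.1, 12.7 and 13.95 CPM in controls, and neither passed (−0.12 and −0.19). With doxycycline there were 16.2, 11.9 and 15.9 CPM, against 24.2, 10.6 and 18.6 CPM without. The second library without doxycycline lay below all 3 doxycycline libraries, while the first and last lay above them.

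Among the disulfide isomerases, Pdia4 fell with doxycycline and rose after Srebf2. It had 403, 400.0 and 428 CPM with doxycycline, against 621, 482 and 598 CPM without, and each doxycycline library was lower (log2 −0.47 ± 0.0985, adjusted p = 0.0167). The call was lost without any 1 doxycycline library or the third one without (adjusted p 0.069 to 0.119). Srebf2 libraries had 270.2, 284 and 272 CPM, against 235, 249.9 and 242 CPM in controls, each higher (log2 0.18 ± 0.0478, adjusted p = 0.0144), and without the first control or the second Srebf2 library this call was lost (0.0549 and 0.104). Prrx1 libraries held 285, 297 and 269.8 CPM and Snai1 libraries 281, 286 and 283 CPM, against 259, 282 and 285 CPM, while Egr1 libraries held 204, 213 and 235 CPM and Jun libraries 218, 227 and 229.7 CPM, against 218, 209 and 222 CPM. All of these overlapped.

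Pdia6 rose after Prrx1 transfection. Prrx1 libraries held 305, 317 and 303 CPM and Snai1 libraries 304, 298 and 307 CPM, against 265, 260.4 and 260.1 CPM in controls. Both factors' libraries were above all controls, and Prrx1 passed (log2 0.23 ± 0.052, adjusted p = 0.0303) while Snai1 did not (log2 0.21 ± 0.052, adjusted p = 0.0635), a difference between them that did not pass either (−0.02, adjusted p = 0.997). The Prrx1 call was lost without any library but the first control (adjusted p 0.0795 to 0.115). With doxycycline Pdia6 had 170.5, 163 and 176 CPM, against 236, 193 and 177 CPM without, lower in each library (−0.25, adjusted p = 0.215). Srebf2 libraries had 213, 225 and 223 CPM, against 226, 245 and 233 CPM, also lower in each without passing (−0.09, adjusted p = 0.225). Egr1 libraries, with 181, 188 and 219 CPM, and Jun libraries, with 186, 198 and 199.6 CPM, overlapped their controls at 208, 187 and 211 CPM.

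Pdia3, which works with calnexin and calreticulin on glycoproteins, rose after Srebf2 to 768, 812 and 851 CPM, against 741, 723 and 718 CPM in controls, without overlap (log2 0.16 ± 0.051, adjusted p = 0.0421). Leaving out any library but the first Srebf2 one ended the call (adjusted p 0.0605 to 0.151). It went the other way with doxycycline, at 1344, 1335 and 1409 CPM against 1905, 1516 and 1622 CPM without, lower in each library (−0.30, adjusted p = 0.085). Prrx1 libraries had 764, 778 and 791 CPM and Snai1 libraries 773, 773 and 782 CPM, against 843, 837 and 852 CPM, all below the controls (−0.12 and −0.12, not passed). Egr1 libraries, with 729, 771 and 811 CPM, and Jun libraries, with 801, 813 and 796 CPM, overlapped controls at 818, 746 and 778 CPM.

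Creld2, an isomerase-like protein secreted under ER stress, fell after Srebf2. Srebf2 libraries held 39.7, 43.1 and 39.5 CPM, against 51.98, 50.5 and 44.7 CPM in controls, all lower (log2 −0.27 ± 0.0689, adjusted p = 0.0144), and the call was lost without the first or second control or the third Srebf2 library (adjusted p 0.0532 to 0.0768). Prrx1 libraries held 59.05, 57.6 and 59.8 CPM and Snai1 libraries 56.8, 57.02 and 58.3 CPM, against 54.3, 45.4 and 47.6 CPM. All 6 were above the controls without passing (log2 0.26 ± 0.0731, adjusted p = 0.0766 for Prrx1; log2 0.22 ± 0.0732, adjusted p = 0.141 for Snai1). With doxycycline there were 18.8, 22.9 and 20.5 CPM, against 30.7, 23.99 and 26.2 CPM without, each doxycycline library being lower (−0.38, adjusted p = 0.162). Egr1 libraries had 43.1, 42.1 and 44.2 CPM and Jun libraries 43.6, 43.7 and 46.5 CPM, against 47.4, 43.8 and 49.2 CPM, with overlap. Of the 7 members whose promoters hold the ER stress element, Hsp90b1 and Canx were called higher after Srebf2 and Creld2 lower. Hspa5, Calr, Dnajc3 and Pdia6 were not called there. Among all tested genes 8.62% were called higher and 8.67% lower, and the part of the element in these changes was not tested.

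**Figure D4:**
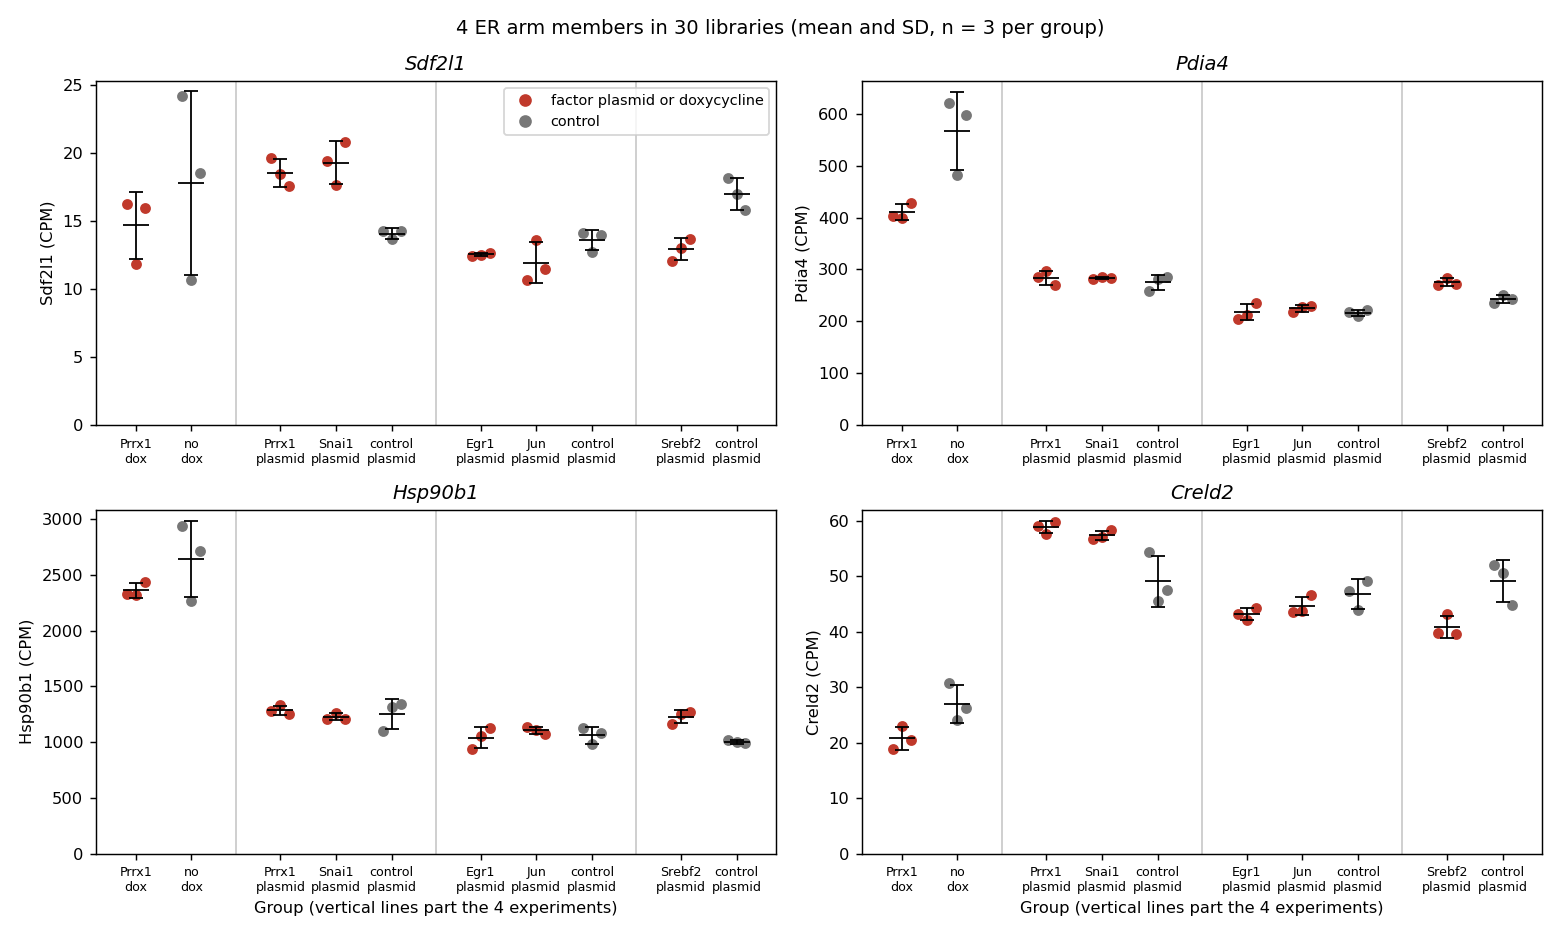
CPM of Sdf2l1, Pdia4, Hsp90b1 and Creld2 in each of 30 libraries (points) with the group mean and SD (n = 3), in 4 experiments parted by vertical lines, with red for factor plasmid or doxycycline and grey for controls. After Srebf2, Hsp90b1 and Pdia4 lie above their controls and Sdf2l1 and Creld2 below, while Sdf2l1 lies above the controls after Prrx1 and Snai1.

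Of the remaining ER arm members, Manf, a secreted ER protein, came closest to a call after the first pair of factors (log2 0.25 ± 0.063, adjusted p = 0.0524 for Prrx1; log2 0.27 ± 0.063, adjusted p = 0.05 for Snai1, just above the threshold of 0.05). Its libraries held 109, 106 and 102 CPM after Prrx1 and 106, 112 and 104 CPM after Snai1, against 93.4, 88.8 and 84.4 CPM in controls, all higher. Dnajb9 (89.2% unique, uncertain), a cochaperone that represses IRE1, had 25.9, 25.9 and 24.7 CPM after Jun, against 30.4, 35.7 and 32.1 CPM in controls, all lower (log2 −0.36 ± 0.081, adjusted p = 0.0574). Herpud1, a membrane protein of ER-associated degradation, had 53.8, 51.3 and 52.4 CPM after Snai1 and 66.2, 66.6 and 72.4 CPM after Prrx1, against 67.7, 62.9 and 57.8 CPM in controls. The Snai1 libraries lay below all controls and the Prrx1 libraries overlapped them, and neither comparison was called. Set directly against Prrx1, Herpud1 was lower after Snai1 in every library, a difference that missed the threshold (log2 −0.38 ± 0.073, adjusted p = 0.0602). The cochaperone Dnajc3 ran from −0.13 to 0.15, and the degradation genes Sel1l and Edem1 from −0.04 to 0.07 and from −0.06 to 0.12, none of them called.

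The sensors and transducers upstream of the members were a list of 17 genes, all tested. With doxycycline 2 fell and 1 rose, where 2.74% of all tested genes were called lower and 3.46% higher. Ern1, the IRE1 sensor, was at 27.1 ± 3.96 CPM with doxycycline (mean ± SD) and 47.2 ± 1.04 CPM without (log2 −0.79 ± 0.125, adjusted p = 0.00286). Creb3l1, a membrane-bound factor cut like ATF6, was at 18.98 ± 0.546 CPM with doxycycline and 37.1 ± 12.1 CPM without (log2 −0.98 ± 0.206, adjusted p = 0.021). Eif2ak4, the amino acid sensor GCN2, was the one that rose, to 145 ± 5.96 CPM, against 107 ± 6.96 CPM without (0.43). After Srebf2 3 rose, namely Atf6 (0.19), Mbtps2 (0.24; 68.7% unique), the protease that cleaves ATF6 and also the sterol factors, and Eif2ak2 (0.20), the double-stranded RNA sensor. Among all tested genes 8.62% were called higher there. In the other 4 comparisons edgeR called none, with 1 higher and 1 lower before adjustment (p below 0.05) after Prrx1, 2 lower after Snai1, 1 and 1 after Egr1 and 2 and 1 after Jun. The shares of all tested genes past that p were 9.54% higher and 7.7% lower after Prrx1 and 9.28% and 7% after Snai1. They were 5.61% and 4.64% after Egr1 and 7.67% and 7.61% after Jun.

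Of 31 further genes linked to ATF4, 28 to 31 were tested. Slc38a2, a neutral amino acid transporter, rose with doxycycline (log2 0.50 ± 0.0734, adjusted p = 0.00175) and was the sole call there. Among all tested genes 3.46% were called higher and 2.74% lower in that comparison. Ddit4, which restrains mTORC1, rose after Snai1 (log2 0.43 ± 0.0743, adjusted p = 0.0124) and fell after Srebf2 (log2 −0.38 ± 0.0665, adjusted p = 0.00134). Jdp2, a leucine zipper repressor, rose after Jun (log2 0.36 ± 0.0657, adjusted p = 0.0237). After Srebf2 Eprs, a tRNA synthetase gene, rose (0.17), while Stc2, a stress-induced glycoprotein (−0.28), and Eif4ebp1, a brake on cap-dependent translation (−0.20), fell. With Ddit4 this made 1 of 29 genes higher and 3 lower, beside 8.62% and 8.67% of all tested genes. None was called by edgeR after Prrx1 transfection or Egr1. At an unadjusted p below 0.05, 3 of 31 were higher and 2 lower after Prrx1, against 9.54% and 7.7% of all tested genes. After Egr1 7 of 30 were higher and 0 lower, against 5.61% and 4.64%. After Jun, with Jdp2 as its 1 call, 10 of 30 were higher and 2 lower at that level, against 7.67% and 7.61%.

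Further ER folding, translocation and degradation genes were 28, of which 27 or 28 were tested. With doxycycline 5 fell: Spcs3, a signal peptidase subunit (log2 −0.81 ± 0.074, adjusted p = 5.18e-05), Os9, a lectin of ER-associated degradation (−0.49), the isomerases Pdia5 (−0.46) and P4hb (−0.38), and Sec61a1, the translocon channel (−0.34). Those 5 calls compare with 2.74% of all tested genes called lower. Their list had a median of −0.22, against −0.01 over all genes, and 15 of 27 were lower at an unadjusted p below 0.05, against 9.19% of all tested genes. After Srebf2 Ero1l, the oxidase that recharges the isomerases (log2 0.32 ± 0.0518, adjusted p = 0.000655), and Spcs3 (0.21) rose, and Os9 (−0.22) and Sec61b (−0.25; 76.5% unique) fell. That was 2 of 27 genes higher and 2 lower, beside 8.62% and 8.67% of all tested genes. Selenok, a selenoprotein of the ER membrane, rose after Prrx1 transfection (0.27, 83.9% unique), where 1.94% of all tested genes were called higher. EdgeR called none after Snai1, Egr1 or Jun, with 2, 4 and 1 higher and 0, 1 and 2 lower at an unadjusted p below 0.05. In the same order, 9.28%, 5.61% and 7.67% of all tested genes were higher at that p, and 7%, 4.64% and 7.61% lower.

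Of 12 heat shock genes of the cytosol, a separate folding response, 3 rose after Snai1, where 1.14% of all tested genes were called higher. Hspa1a had 28.9 ± 2.15 CPM after Snai1, against 4.60 ± 0.564 CPM in controls (log2 2.65 ± 0.113, adjusted p = 1.89e-08), and Hspa1b 106 ± 2.88 CPM, against 20.7 ± 3.42 CPM (2.36). These are near-identical copies (29.9 and 31.9% unique), so reads may be split between them. Dnajb1, their cochaperone, rose too (0.47). Both HSP70 genes were also higher after Snai1 than after Prrx1 (2.20 and 2.16, adjusted p = 1.37e-07 and 3.6e-07). In the same Snai1 libraries the ER relative Hspa5 had a fold change of 0.02. After Srebf2 Hspa8 (0.27; 55.2% unique), Hspa4l (0.24) and Hsp90aa1 (0.19; 48.5% unique) rose and Hspa1a fell (−0.51). Among all tested genes 8.62% were called higher and 8.67% lower there. Of 8 mitochondrial chaperones and proteases, Hspe1 (69.5% unique), the HSP10 chaperonin, rose after Prrx1 (0.36) and Snai1 (0.43), and no other was called. Among all tested genes 1.94% and 1.14% were called higher in these comparisons, which share their controls.

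Direct contrasts asked whether factors within an experiment differed. Between Snai1 and Prrx1 transfection the edgeR fit reported here called 0 members, where 0.252% of all tested genes changed. At an unadjusted p below 0.05, 2 members were higher and 1 lower in Snai1 cells (2.34% and 3.14% of all genes). DESeq2 called 1 and limma 0. Between Jun and Egr1 edgeR called 0, where 0.441% of all genes changed, with 1 higher and 2 lower in Jun cells at an unadjusted p below 0.05 (4.94% and 6.84% of all genes). DESeq2 called 1 and limma 0, and without the third Egr1 library 3 members were called lower in Jun cells. Ppp1r15a itself was close to level between Jun and Egr1 (−0.02 ± 0.0776).

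Prrx1 was higher both with doxycycline in the transduced cells and after transfection, and the change with doxycycline minus the change after transfection was tested directly. It was called lower for 2 members, where 2.07% of 15201 tested genes were called lower. For Pdia4 the changes were −0.47 with doxycycline and 0.05 after transfection (difference −0.52 ± 0.135, adjusted p = 0.04), and for Creld2 they were −0.38 and 0.26 (difference −0.65 ± 0.161, adjusted p = 0.0313). Pdia6 missed the threshold (difference −0.49 ± 0.135, adjusted p = 0.0504). No member was called higher by edgeR, DESeq2 or limma, with 1 at an unadjusted p below 0.05 (7.36% of all genes). Ppp1r15a, lower with doxycycline, was not shown to differ (−0.34 ± 0.165, adjusted p = 0.312). Among pathway genes Ern1 (−0.80), Os9 (−0.67), Spcs3 (−0.65) and Ddit4 (−0.56) were lower and Slc38a2 (0.60) higher in this difference. The members' median was −0.17, against −0.03 over all genes. The count of lower calls was 0 without the first or the third doxycycline library, without any 1 of the Prrx1 transfection libraries, or without the second or the third control plasmid library, and 1 without the second doxycycline library. Without the first library without doxycycline, the one that stood apart, it was 0 as well, and Cebpb was called higher (difference 0.67, adjusted p = 0.0225). It was 4 without the second library without doxycycline, and 3 without the first control plasmid library. Doxycycline itself, vector, dose, control and library set differ between the experiments and cannot be told apart.

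The transduced libraries also differed from all others in which transcripts the ER genes were counted on. Transcripts annotated as retained introns took 18.9 to 25.6% of the members' counts in the 6 transduced libraries and 1.44 to 2.15% in the 24 transfected ones, and over all genes 5.35 to 6.38% and 2.56 to 3.30%. Most of this was Calr. Its transcript Calr-204, a retained intron of 943 bases, had 4364, 5589.6 and 6617 TPM with doxycycline, against 4297, 6261 and 6463 TPM without, and held 78.5% and 76.3% of the gene's counts. In the 24 transfected libraries it had 3.28 to 61.2 TPM. The coding Calr-201 had 586, 591 and 529 TPM with doxycycline, against 635, 723 and 649.8 TPM without, and 550.3 to 745 TPM in the transfected libraries. Levels of the coding transcript overlapped between the 2 kinds of library, and the transcript with the retained intron was high in every transduced library and low in every transfected one. Both groups of transduced cells showed it, with doxycycline and without, and cell treatment, library and sequencing run cannot be told apart here. Without retained-intron transcripts, the doxycycline comparison again called 4 members.

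**Figure D5:**
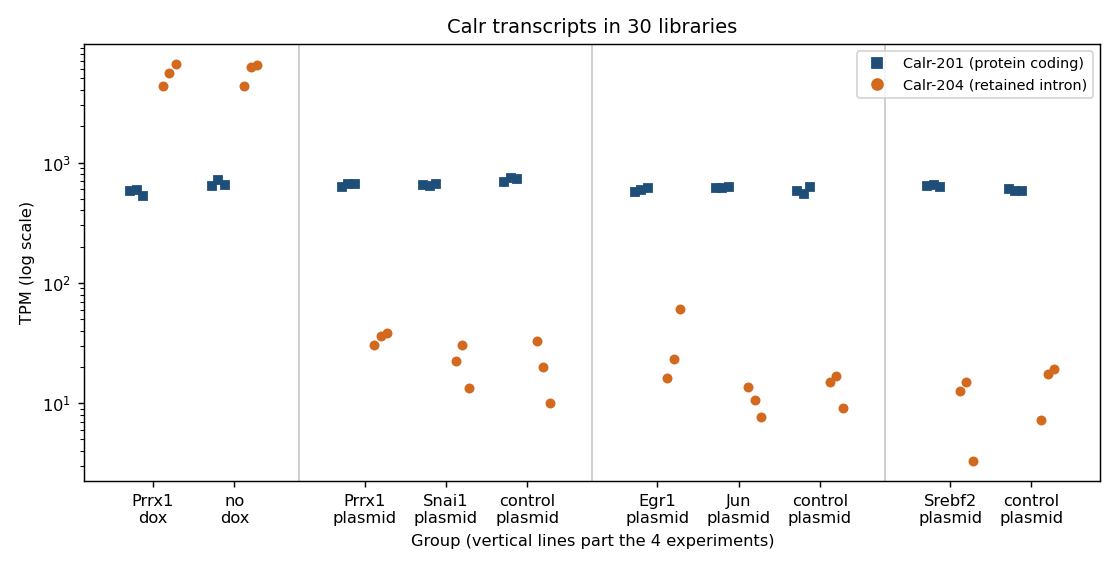
TPM on a log scale of the coding transcript Calr-201 (squares) and of Calr-204, annotated as a retained intron (circles), in each of 30 libraries by group. Squares lie between 529 and 745 TPM throughout, while circles lie above 4290 TPM in the 6 transduced libraries and below 62 TPM in the others.

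By level, 3 ER chaperones stood at the top of the members. Median TPM over the 30 libraries was 679.6 for Calr, 649.6 for Hspa5 and 646 for Hsp90b1, whose ranges over libraries overlapped (573 to 7163, 410.2 to 1071 and 484 to 1583 TPM), followed by Atf4 at 479 TPM. Ppp1r15a had 49.2 TPM. The lowest were the ER cochaperones Dnajc3 at 24.1, Sdf2l1 at 22.4 and Dnajb9 at 16.1 TPM, the lipoprotein receptor gene Vldlr at 3.28 TPM and the cystine transporter gene Slc7a11 at 2.30 TPM, while the transporter gene Slc3a2 stood at 230.3 TPM.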

How the data were processed

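Bulk RNA of 30 mouse fibroblast libraries (10 groups of 3) was quantified by the authors with kallisto 0.43.0 against mm10, per the submitters' processing notes. The deposited files hold estimated counts per transcript and the authors' TPM values (per length and depth, scaled within a library). The transcripts of a gene were added up through GENCODE M21 names and the sums rounded; 116728 of 118491 targets matched (unmatched targets held 0.655 to 0.747% of counts). Depth was 7996355 to 37068611 counts per library. Changes were tested with edgeR 4.0.16 (TMM, filterByExpr with a minimum count of 10, robust quasi-likelihood F test, prior count 0.125) in R 4.3.3, 1 fit per experiment over all its groups, with Benjamini-Hochberg adjustment over all tested genes at 0.05. The SE is the fold change over the root of its F value. The change with doxycycline minus the change after Prrx1 transfection was tested in a fit over both experiments. DESeq2 1.42.0, limma 3.58.1 on log2(TPM + 1) and other filters, fits and left-out libraries were alternatives; DESeq2 runs used the same rounded counts. CPM in the text are edgeR's, on TMM library sizes, except for transcripts, which are per total counts. The fits were checked on simulated counts. The members and lists were chosen with earlier results of these data known. Values in every library are given for members called in at least 1 of the 6 comparisons and for Atf4, Ddit3, Hspa5 and Xbp1; of the pathway lists, up to 5 called genes per list and comparison are named by adjusted p. Other genes are named for having come close to the threshold, after their values were seen. Uniqueness is the share of a gene's 31-base words found in no other gene. Samples with the same replicate number were not paired by the labels. Promoters are RefSeq entries of GRCm38.p6; gene positions are GENCODE M21.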

Additional observations from a re-analysis of the deposited data

Results flagged for a closer look

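In 2 members the change with doxycycline in Prrx1-transduced cells differed from the change after Prrx1 transfection, by a direct test of that difference across both experiments (edgeR quasi-likelihood test with Benjamini-Hochberg adjustment). Pdia4 differed by −0.516 on the log2 scale, with −0.47 under doxycycline (each of 3 libraries lower than those without) and 0.05 after transfection (adjusted p = 0.04). Creld2 differed by −0.649, with −0.38 under doxycycline (each of 3 libraries lower) and 0.26 after transfection (each of 3 libraries higher than the controls; adjusted p = 0.0313). Pdia4 lost its call without any 1 of 10 of the 12 libraries, and Creld2 without any 1 of 8 (highest adjusted p 0.122 and 0.0994). Doxycycline, which only the transduced cells received, and Prrx1 cannot be told apart in this difference. Groups of 3 libraries are too small for a search for single outlying values.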

How the results depend on the processing

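Calls were often near the threshold, and no called value turned round. Of 313 alternative values for the 21 called member values (19 in comparisons with a control, 2 in the change with doxycycline minus that after Prrx1 transfection, called induction minus transfection here), 211 kept the call, 102 lost it and 0 reversed. After Srebf2 and after Egr1 and Jun, Ppp1r15a kept its call in every setting run, as did Hsp90b1 after Srebf2. With 1 library left out at a time, members called ranged from 0 to 6 with doxycycline, 0 to 9 after Prrx1 transfection, 0 to 13 after Snai1, 1 to 4 after Egr1, 1 to 1 after Jun, 4 to 11 after Srebf2, 0 to 0 for Snai1 against Prrx1, 0 to 3 for Jun against Egr1 and 0 to 4 for induction minus transfection. Limma on log2(TPM + 1) called 0 members with doxycycline, 4 after Prrx1, 4 after Snai1, 6 after Egr1, 15 after Jun and 0 for induction minus transfection. DESeq2 called 7 after Prrx1, 9 after Snai1, 5 after Jun, 1 for Snai1 against Prrx1, 1 for Jun against Egr1 and 4 for induction minus transfection. DESeq2 size factors in edgeR gave 4 after Prrx1 and 2 after Snai1. Without a filter there were 9 with doxycycline, 5 after Snai1, 2 after Jun and 2 for Snai1 against Prrx1, and with at least 5 CPM in 3 libraries 3 after Snai1 and 2 after Jun. All 30 libraries in 1 fit gave 14 with doxycycline, 1 after Prrx1, 0 after Snai1, 2 after Jun, 2 after Srebf2 and 6 for induction minus transfection. A fit of only the groups compared gave 0 after Prrx1, 0 after Snai1, 7 after Jun and 2 for Snai1 against Prrx1. Leaving out both libraries with other cell type markers, chosen after seeing the data, gave 8 after Egr1, 4 after Jun and 4 for Jun against Egr1. The cause of these shifts was not tested. The counts of members in this paragraph are not set beside the genes called in the same setting. A shift of members can therefore not be told here from a shift over all genes. Same-numbered samples did not deviate together (correlations −0.26 to 0.20), and the fit with the replicate block gave 2 members after Snai1 in place of 1. Over all genes, calls ranged from 162 to 2725 with doxycycline (844 as reported), 105 to 2637 after Prrx1 (393), 46 to 3061 after Snai1 (212), 10 to 1173 after Egr1 (47), 29 to 2203 after Jun (139), 564 to 2506 after Srebf2 (2199), 7 to 75 for Snai1 against Prrx1 (33), 10 to 569 for Jun against Egr1 (64) and 245 to 1850 for induction minus transfection (617). Alternatives for the spliced share of Xbp1 were not run, since no annotated transcript separates the IRE1 intron. The 6 transduced libraries were the shallowest, with 7996355 to 17129632 counts, which limits low members such as Vldlr.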
